A study of Mus musculus with 12 samples.

Results

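The genes described here are 10 enzymes and carriers of fatty acid activation and of glycerophospholipid metabolism in myelinating oligodendrocytes of mice: Acsl3, Dbi, Acbd3, Acadl, Pecr, Agpat3, Lpgat1, Chpt1, Etnk2 and Pla2g4a. They were chosen by name and matched through their Entrez Gene identifiers, and all 10 were found among the 2398 genes of the analysed table. All mice were C57BL/6 and carried the Ndrg1-EGFP reporter and floxed Lmna alleles, so that Lmna, the gene for the A-type lamins of the nuclear envelope, can be removed where Cre recombinase is made. The control genotype, Cnp+/+;Lmnafl/fl, is called WT, and CnpCre/+;Lmnafl/fl is called KO. Cre is made from 1 of the alleles of Cnp, a gene of the oligodendrocyte lineage, so KO mice also have 1 intact Cnp copy fewer. Cells were taken from brains at postnatal day 60 according to one field of the labels and 8 weeks according to another, and were sorted as GFP-positive cells that excluded the dead-cell dye propidium iodide. RNA was sequenced from 3 biological replicates of each genotype, with 2 libraries for each replicate that were summed here. The labels do not say how many animals made up a replicate, and p-values measure the spread between these replicates.

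Myelin is rich in lipid, and oligodendrocytes make its fatty acids and phospholipids in large amounts. A fatty acid enters metabolism once an acyl-CoA synthetase joins it to coenzyme A. The acyl-CoA is carried by binding proteins and is then oxidised, elongated, or handed to acyltransferases that build phosphatidic acid and the phospholipids made from it. Choline and ethanolamine head groups are first phosphorylated and later attached to diacylglycerol in the Kennedy pathway, and phospholipases release the fatty acids again.

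The analysed genes come from chromosome 1 and from the first 111.3 Mb of chromosome 10, and their counts ranged from 3694551 to 6093336 per replicate. The table covers part of each library, and Lmna and Cnp are not analysed here, so recombination was not checked. The 2 libraries of a replicate agreed within sampling noise on the 10 genes, with chi-square p values from 0.16 to 0.825. Of 14 genes listed here as markers of myelinating oligodendrocytes, Adamts4, Nfasc and Mpzl1 are in the table. Together they reached 12329 to 14027 CPM in WT and 16988 to 19661 CPM in KO. How specific these 3 genes are to such cells was not tested. CPM is the count scaled to the same total of analysed genes in every replicate, with TMM factors of 0.951 to 1.05. Markers of other cells were lower in sum. The 4 astrocyte genes reached 391 to 876 CPM in WT and 529 to 1142 CPM in KO, and the 5 vascular and fibroblast genes 83.6 to 475 and 250.4 to 639 CPM. The 2 microglia and leukocyte genes reached 41.5 to 85.5 CPM in WT and 47.0 to 242 CPM in KO, the 2 neuronal genes 7.03 to 247 and 10.5 to 46.9 CPM, and the 2 progenitor genes 0.497 to 36.6 and 12.2 to 95.6 CPM. Among the 5 vascular and fibroblast genes, Rgs5, a pericyte marker, had no count in 3 replicates and at most 0.854 CPM in the others. The 3 highest genes of that list were well above this. Fn1 ranged from 38.5 to 330 CPM, Dcn from 28.8 to 181 CPM and Col3a1 from 16.2 to 123 CPM. In bulk RNA, fewer cells of a type and less RNA per cell cannot be told apart.

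Levels between genes were compared per kilobase of the longest protein-coding transcript in GENCODE M21. Dbi, the acyl-CoA-binding protein, was the highest, at 17771 CPM per kilobase on average over the 6 replicates, the top value of the 1302 tested genes that had such a length. Acsl3 followed at 948 CPM per kilobase and Acadl at 613 CPM per kilobase. Each of these 3 genes lay above the next in 6 of 6 replicates, with ranges that did not overlap. Pla2g4a stood at 392 and Agpat3 at 376 CPM per kilobase, and each was the higher of the pair in 3 replicates. Pecr at 193 and Acbd3 at 184 CPM per kilobase were likewise not separated, and Chpt1 at 122 and Lpgat1 at 120 CPM per kilobase overlapped too. Etnk2 was far below the rest at 4.52 CPM per kilobase, at percentile 20.9 of the tested genes, where the other 9 lay at percentile 66.4 or above. The order below Acadl depended on the length used, and so did the distance of Dbi from the rest. With the merged length of all annotated exons, Dbi at 7111, Acsl3 at 860 and Acadl at 586 CPM per kilobase still led in that order. Dbi was then closer to Acsl3. Agpat3 at 288 CPM per kilobase lay above Pla2g4a at 175, and Acbd3 at 94.0 and Chpt1 at 71.0 CPM per kilobase lay below Lpgat1 at 114.

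**Figure D1:**
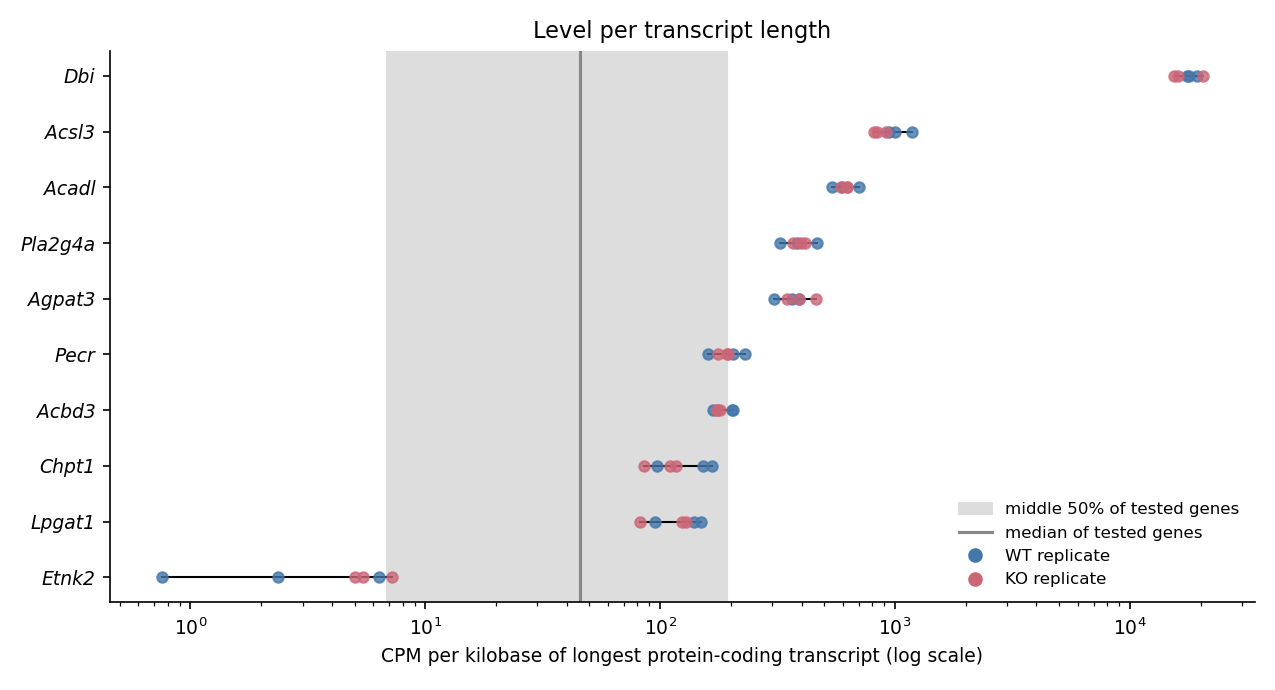
CPM per kilobase of the longest protein-coding transcript (log axis) for the 10 genes, with 1 point for each of the 3 WT and 3 KO replicates and a line over their range. The grey band is the middle 50% of the tested genes and the grey line their median of 45.6 CPM per kilobase. With this length Dbi lies more than an order of magnitude above Acsl3, and Etnk2 lies around and below the lower edge of the band.

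The comparison of KO with WT asked whether transcripts of these genes differ between the genotypes. No member passed the quasi-likelihood test of edgeR, and the Benjamini-Hochberg adjusted p values were 0.994 for 8 of them and 0.995 for Acadl and Pla2g4a. Over all 1484 genes tested, 0% passed (0 higher and 0 lower in KO), and 3.98% had an unadjusted p under 0.05 (1.28% with KO lower), as 1 of the 10 did (Acsl3, lower in KO). DESeq2 called 7 genes and none of the 10, and limma-voom called 0. The log2 fold change, KO over WT, was below 0 in 6 of the 10 genes and in 50.5% of all tested genes, and the median was -0.08 over the 10 and -0.01 over all. A change of more than 1 log2 unit was outside the 95% interval of 9 of the 10 genes (all but Etnk2) and of 63.6% of all tested genes. The interval lay within a 1.5-fold change in either direction for 7 of the 10 genes (all but Lpgat1, Chpt1 and Etnk2) and for 45.4% of all tested genes. Genes with high counts are measured more closely, and the median SE was 0.14 for the 10 genes and 0.21 for all.

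**Figure D2:**
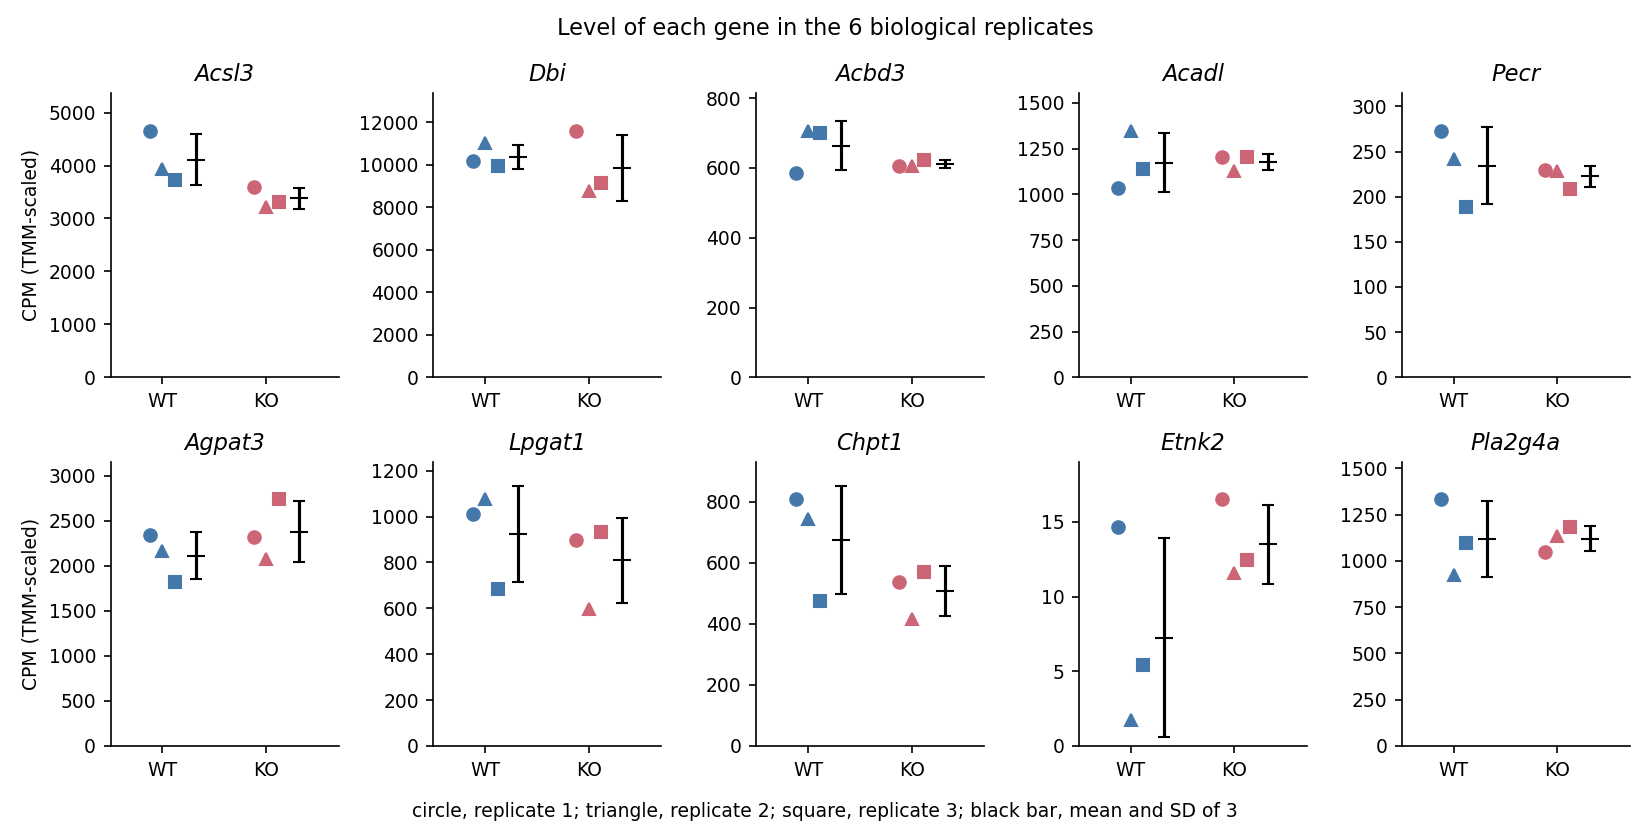
CPM of each of the 10 genes in the 3 WT and 3 KO replicates, each panel on its own axis from 0, with the mean and SD of 3 beside the points. Of the 10, only in Acsl3 do the genotypes not overlap, and Chpt1 and Lpgat1 range the most widely after Etnk2.

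Fatty acid activation was represented by Acsl3, a long-chain acyl-CoA synthetase of the endoplasmic reticulum and of lipid droplets (Entrez 74205, chromosome 1, 78657825 to 78707743 in mm10, plus strand). Acsl3 stood at 4661, 3941 and 3733 CPM in WT replicates 1, 2 and 3 and at 3602, 3217 and 3317 CPM in KO replicates 1, 2 and 3. Every KO replicate lay below every WT replicate, and the nearest pair, WT replicate 3 and KO replicate 1, was close. Over all tested genes, 8.49% had replicates that did not overlap, 4.04% with KO below WT. The log2 fold change was -0.28 ± 0.12 (SE, n = 3 for each genotype), which is a KO level 0.822 times that of WT with a 95% interval from 0.682 to 0.989, and the edgeR quasi-likelihood adjusted p was 0.994 (unadjusted p = 0.0405). The largest value was that of WT replicate 1, and without that replicate the log2 fold change was -0.19 (edgeR adjusted p = 0.853). Over 17 alternatives the adjusted p of edgeR, DESeq2 or limma ranged from 0.0344 to 1, and only the fit that took the 12 libraries as independent samples gave a value under the threshold. The 3 listed oligodendrocyte markers named above were higher in every KO replicate than in every WT replicate while Acsl3 was lower. They did not pass the test either (edgeR adjusted p = 0.504 for Adamts4, 0.927 for Nfasc and 0.994 for Mpzl1). Whether their levels have a part in the values of Acsl3 was not tested. Utp14b overlaps 244 exon bases of Acsl3 on the same strand and stood at 112 to 164 CPM. The genes most like Acsl3 in log2 CPM over the 6 replicates were Cited2 (Pearson r = 0.988) and Snrpe (r = 0.975), out of 1483 genes compared. Acss3, an acetyl-CoA and propionyl-CoA synthetase and the other synthetase of the list in the table, had 19 counts in WT replicate 1 and none in the other 5 replicates, and was not tested.

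The acyl-CoA carriers came next. Dbi, also known as the diazepam-binding inhibitor (Entrez 13167, chromosome 1, 120113280 to 120121096, minus strand), stood at 10198, 11017 and 9926 CPM in WT replicates 1 to 3 and at 11617, 8772 and 9139 CPM in KO replicates 1 to 3. KO replicate 1 was the highest of all 6 and the other KO replicates were the lowest, so the KO values enclosed those of WT. KO replicate 1 also had the highest sums of astrocyte markers (1142 CPM) and of vascular and fibroblast markers (639 CPM). In WT the astrocyte sum was highest in replicate 1 (876 CPM), and the vascular and fibroblast sum, like Dbi, in replicate 2 (475 CPM). The part of other cells in the level of Dbi was not tested. The log2 fold change was -0.08 ± 0.13 (SE), and the interval allowed a KO level from 0.767 to 1.17 times that of WT. Without KO replicate 1 the log2 fold change was -0.22, and without KO replicate 2 it was 0.0024. The genes most like Dbi over the 6 replicates were Ikzf2 (r = 0.989) and Akap7 (r = 0.981). Acbd3 is a Golgi protein with an acyl-CoA-binding domain that recruits a phosphatidylinositol kinase (Entrez 170760, chromosome 1, 180726043 to 180754204, plus strand). It stood at 584, 707 and 701 CPM in WT and at 605, 604.8 and 623 CPM in KO, where the replicates varied by 1.75% of their mean. The KO values fell inside the WT range. Its log2 fold change was -0.12 ± 0.11 (SE), with KO between 0.768 and 1.102 times WT, and it ranged from -0.21 without WT replicate 1 to -0.06 without WT replicate 2. Acbd6, another acyl-CoA-binding protein, averaged 409 ± 25.1 CPM in WT against 404 ± 17.9 CPM in KO (SD, n = 3). Fabp7, a fatty acid-binding protein of glial progenitors and astrocytes, averaged 49.8 ± 23.5 CPM in WT against 48.5 ± 4.49 CPM in KO. All 4 binding protein genes had a log2 fold change below 0, as did 50.5% of all tested genes, and 0 of the 4 passed the test. The values of Acbd6 (-0.02) and Fabp7 (-0.04) were close to no change.

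Oxidation and reduction of acyl-CoA were represented by Acadl and Pecr. Acadl, the long-chain acyl-CoA dehydrogenase of mitochondrial beta-oxidation (Entrez 11363, chromosome 1, 66830839 to 66863309, minus strand), stood at 1033, 1349 and 1139.5 CPM in WT and at 1202, 1126 and 1202 CPM in KO. The KO values fell inside the WT range, and the log2 fold change was 0.0034 ± 0.12 (SE), with KO between 0.829 and 1.21 times WT. Pecr, a peroxisomal reductase of trans-2-enoyl-CoA used in fatty acid elongation (Entrez 111175, chromosome 1, 72259172 to 72284321, minus strand), stood at 273, 241 and 189 CPM in WT and at 229.9, 228 and 209 CPM in KO. These KO values also fell inside the WT range, with a log2 fold change of -0.08 ± 0.16 (SE) and KO between 0.741 and 1.22 times WT. Both genes varied less among the KO replicates (3.72% of the mean for Acadl and 5.23% for Pecr) than among the WT replicates (13.7% and 18.2%). The same held for Acsl3, Acbd3, Pla2g4a, Chpt1 and Etnk2, but not for Dbi, Agpat3 and Lpgat1. This contrast was not tested. Pecr shares 175 exon bases with a long non-coding RNA on the opposite strand. The sources used here do not state whether reads were assigned by strand.

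**Figure D3:**
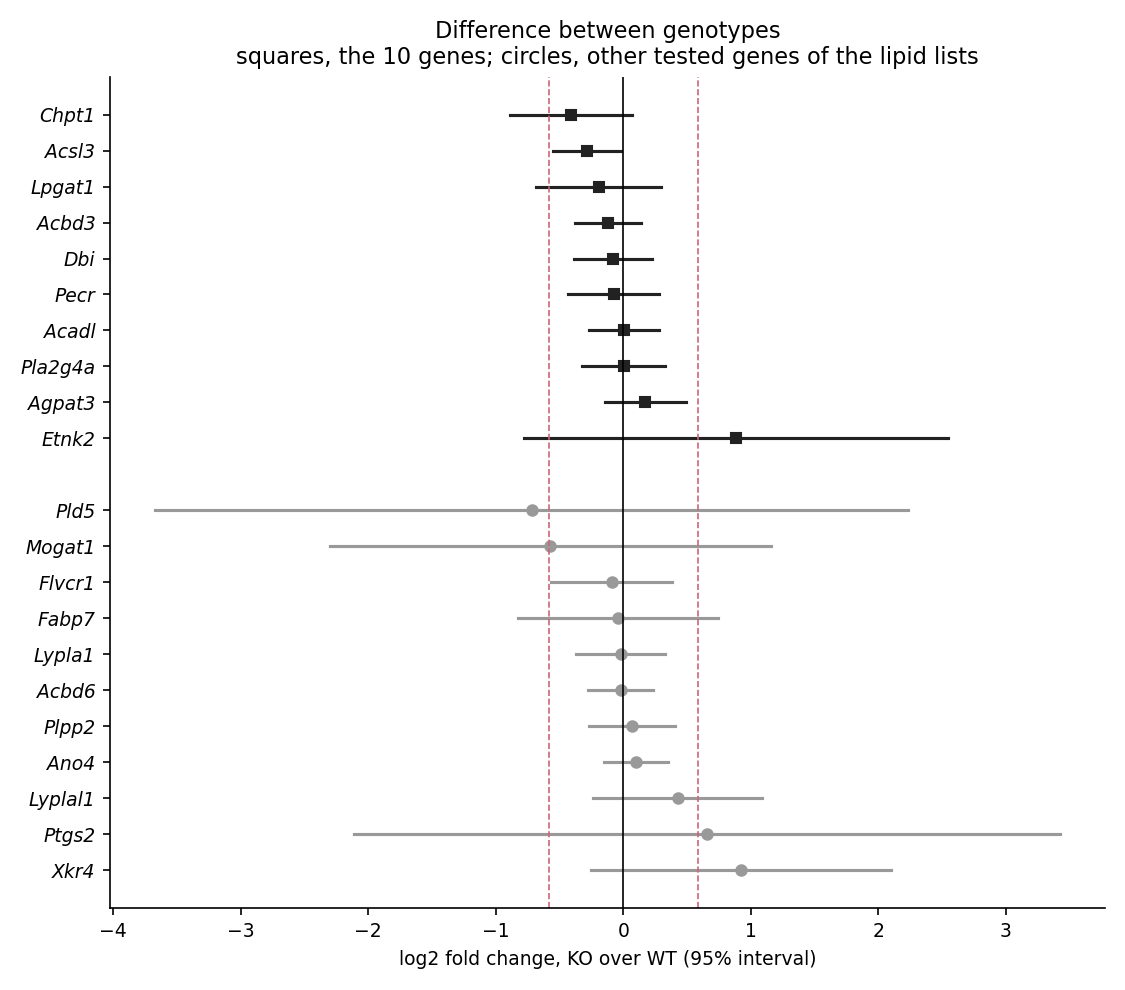
Log2 fold change, KO over WT, with its 95% interval from the edgeR fit, for the 10 genes (squares) and the 11 other tested genes of the lipid lists (circles). The dashed lines mark a 1.5-fold change; Of the 21 genes, only Acsl3 has an interval that leaves out 0, and the widest intervals belong to Etnk2, Pld5, Ptgs2 and Mogat1, which have few counts.

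Acyl chains are joined to the glycerol backbone by Agpat3 and Lpgat1. Agpat3, an acyltransferase that makes phosphatidic acid from lysophosphatidic acid (Entrez 28169, chromosome 10, 78269174 to 78352497, minus strand), stood at 2340.4, 2168 and 1826 CPM in WT and at 2323, 2078 and 2742 CPM in KO. The genotypes overlapped, with KO replicate 3 the highest and WT replicate 3 the lowest. The log2 fold change was 0.17 ± 0.14 (SE), with KO between 0.906 and 1.403 times WT, and it was 0.058 without KO replicate 3, 0.088 without WT replicate 3 and 0.27 without KO replicate 2. The genes most like Agpat3 over the 6 replicates were Tspan15 (r = 0.958) and Lonrf2 (r = 0.957), the latter at only 5.76 to 31.2 CPM. These values of r, and those for Acsl3 and Dbi, are the highest among 1483 genes over 6 replicates and were not tested. Lpgat1, an acyltransferase of lysophospholipids (Entrez 226856, chromosome 1, 191717554 to 191784255, plus strand), stood at 1009.8, 1076 and 686 CPM in WT and at 899, 596 and 931 CPM in KO. The lowest replicate of each genotype, WT replicate 3 and KO replicate 2, lay well below its other replicates, and the genotypes overlapped. Its log2 fold change was -0.19 ± 0.22 (SE), with KO between 0.622 and 1.23 times WT. The value depended on single replicates, from -0.36 without WT replicate 3 to -0.0079 without KO replicate 2. Of the other genes of phosphatidic acid and neutral lipid synthesis, Plpp2, a lipid phosphate phosphatase that turns phosphatidic acid into diacylglycerol, averaged 1392 ± 254 CPM in WT against 1461 ± 146 CPM in KO (SD, n = 3). Mogat1, a monoacylglycerol acyltransferase, averaged 5.27 ± 2.92 CPM in WT against 3.55 ± 1.22 CPM in KO.

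Head groups are handled by Chpt1 and Etnk2. Chpt1, the choline phosphotransferase that makes phosphatidylcholine from diacylglycerol (Entrez 212862, chromosome 10, 88469513 to 88503970, minus strand), stood at 808, 742 and 473 CPM in WT and at 536, 417 and 569 CPM in KO. WT replicates 1 and 2 lay above all KO replicates, and WT replicate 3 lay among them. The log2 fold change was -0.41 ± 0.21 (SE), with KO between 0.541 and 1.05 times WT, and the edgeR quasi-likelihood adjusted p was 0.994 (unadjusted p = 0.0827). Without WT replicate 3 it was -0.60 (adjusted p = 0.897), and without WT replicate 1 it was -0.26 (adjusted p = 0.931). Sycp3 overlaps 660 exon bases of Chpt1 on the opposite strand and stood at 13.3 to 26.3 CPM, and the longest Chpt1 transcript matches 28 other genes, Sycp3 among them, over at least 100 bases at 95% identity or more, so reads there may have been shared or left out. Etnk2, an ethanolamine kinase that starts the synthesis of phosphatidylethanolamine (Entrez 214253, chromosome 1, 133363463 to 133380318, plus strand), had 77, 7 and 30 counts in WT and 58, 73 and 60 counts in KO. These counts are 14.6, 1.74 and 5.40 CPM in WT and 16.5, 11.6 and 12.4 CPM in KO. WT replicate 1 lay among the KO replicates and the other WT replicates below them, with a log2 fold change of 0.88 ± 0.73 (SE) and an interval from 0.582 to 5.85 times WT. The value was 1.89 without WT replicate 1 and 0.44 without WT replicate 2. Flvcr1, a choline and heme transporter, averaged 113 ± 21.7 CPM in WT against 107 ± 16.1 CPM in KO (SD, n = 3).

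An order among the replicates that did not follow genotype was shared by 5 of the 10 genes. Acsl3, Dbi, Chpt1, Lpgat1 and Agpat3 each had their lowest WT value in replicate 3 and their lowest KO value in replicate 2, as did 13.5% of all tested genes. The spread was widest in Chpt1 and Lpgat1. On the log2(CPM + 1) scale, WT replicate 3 deviated from the WT mean by -0.47 in Chpt1, -0.40 in Lpgat1, -0.20 in Agpat3, -0.13 in Acsl3 and -0.06 in Dbi. KO replicate 2 deviated from the KO mean by -0.27, -0.41, -0.19, -0.07 and -0.15 in the same genes. In these 2 replicates, immediate early genes, which tissue dissociation can induce, were highest within their genotype. The 7 genes of that list in the table (Egr2, Ier5, Btg2, Atf3, Ptgs2, Rgs1 and Rgs2) summed to 1709, 348 and 3747 CPM in WT replicates 1 to 3 and to 484, 2601 and 1296 CPM in KO replicates 1 to 3, and each of the 7 was highest in WT replicate 3 and in KO replicate 2. The pattern and this list were chosen after the values were seen, and the part of immediate early transcription in the lipid genes was not tested. With the mean level of those 7 genes as a covariate, a fit added after seeing the data, the log2 fold change of Chpt1 was -0.37 (edgeR adjusted p = 0.79) and that of Lpgat1 -0.16 (adjusted p = 0.978). Chpt1, Lpgat1 and Agpat3 have long transcripts, between 4863 and 7233 bases, and Dbi a short one of 569 bases. Across 877 genes of at least 50 CPM, the median deviation of transcripts of 5 kilobases or more was set against that of transcripts under 2 kilobases. The difference, long minus short on the log2 scale, was -0.21, 0.02 and 0.21 in WT replicates 1 to 3. It was -0.07, -0.05 and 0.098 in KO replicates 1 to 3. The part of transcript length in the shared order was not tested.

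**Figure D4:**
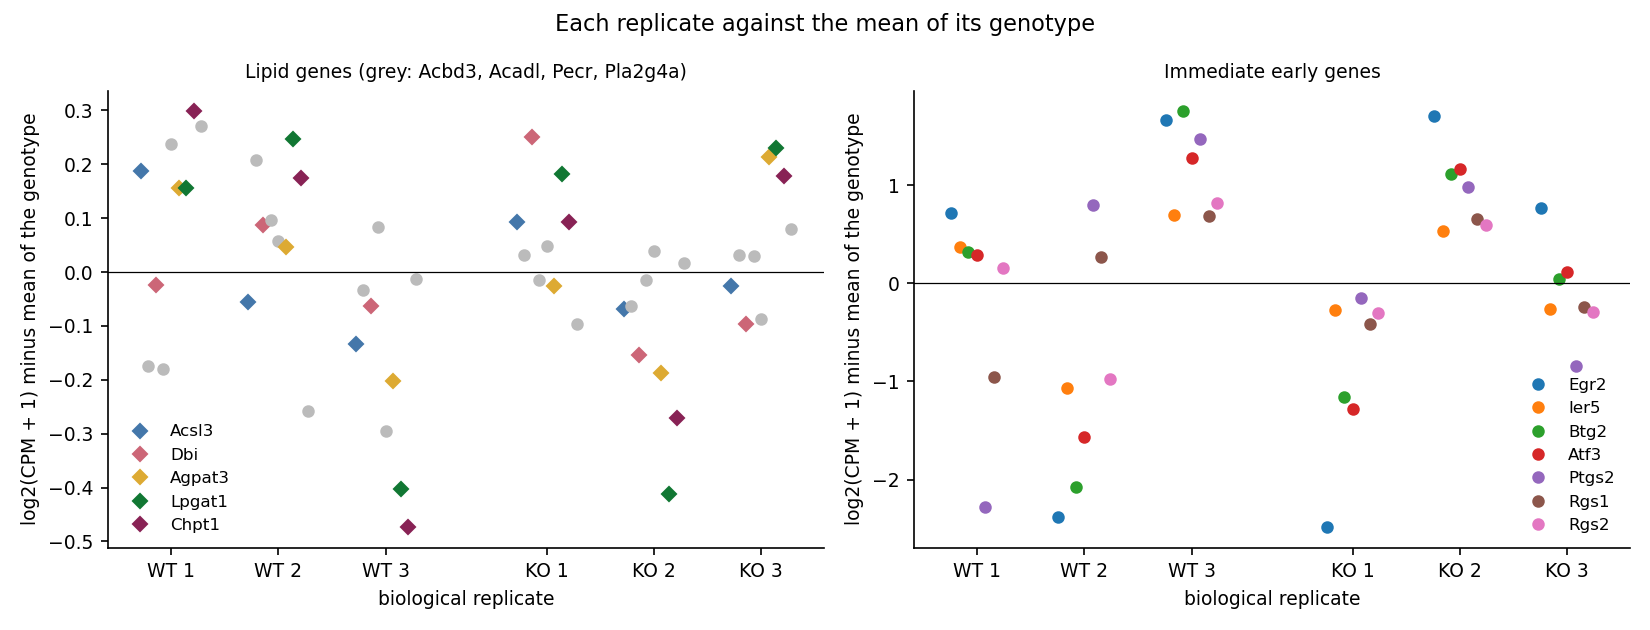
Log2(CPM + 1) of each replicate minus the mean of its genotype, for 9 of the 10 lipid genes without Etnk2 (left) and for 7 immediate early genes (right, on a wider axis). The 5 coloured lipid genes are lowest in WT replicate 3 and KO replicate 2, where the immediate early genes are highest.

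The start regions of 4 of these 5 genes are shown so that the letters around their start sites can be compared. They are RefSeq promoters of GRCm38.p6, running from 250 bases before the start site to 50 after it. Each is written 5′ to 3′ on the gene's strand. Capitals mark matches on either strand to the CCAAT box (CCAAT), the GC box (GGGCGG), the sterol regulatory element (TCACNCCAC), the core of nuclear receptor elements (AGGTCA) and the TATA box (TATAAA).
Chpt1, chr10:88503921-88504220, minus strand: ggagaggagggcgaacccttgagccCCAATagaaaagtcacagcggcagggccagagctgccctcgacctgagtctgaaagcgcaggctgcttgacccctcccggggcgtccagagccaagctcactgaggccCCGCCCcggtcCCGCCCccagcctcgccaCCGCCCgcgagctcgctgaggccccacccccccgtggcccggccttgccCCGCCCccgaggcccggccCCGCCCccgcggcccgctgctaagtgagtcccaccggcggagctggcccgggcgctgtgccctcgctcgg
Lpgat1, chr1:191717774-191718073, plus strand: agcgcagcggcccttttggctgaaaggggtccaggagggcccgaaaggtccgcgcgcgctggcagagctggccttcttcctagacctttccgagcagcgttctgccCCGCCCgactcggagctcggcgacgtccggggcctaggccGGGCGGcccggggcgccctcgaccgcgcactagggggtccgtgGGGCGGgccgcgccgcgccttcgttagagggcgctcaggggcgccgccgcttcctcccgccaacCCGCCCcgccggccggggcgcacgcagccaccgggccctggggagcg
Agpat3, chr10:78351651-78351950, minus strand: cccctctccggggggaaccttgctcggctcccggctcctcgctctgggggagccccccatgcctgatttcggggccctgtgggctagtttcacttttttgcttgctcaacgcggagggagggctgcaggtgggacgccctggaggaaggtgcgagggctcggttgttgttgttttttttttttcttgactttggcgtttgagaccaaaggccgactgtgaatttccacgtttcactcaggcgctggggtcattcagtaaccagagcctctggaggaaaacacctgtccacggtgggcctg
Acsl3, chr1:78657575-78657874, plus strand: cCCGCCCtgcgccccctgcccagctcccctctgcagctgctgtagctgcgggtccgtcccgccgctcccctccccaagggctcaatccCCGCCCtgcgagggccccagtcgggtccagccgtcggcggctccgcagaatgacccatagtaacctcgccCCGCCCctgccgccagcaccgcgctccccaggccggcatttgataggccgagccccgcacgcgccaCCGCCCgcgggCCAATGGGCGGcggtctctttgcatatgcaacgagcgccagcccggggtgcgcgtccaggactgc
Chpt1 and Acsl3 hold 5 GC boxes and 1 CCAAT box each, Lpgat1 holds 4 GC boxes and Agpat3 no match. Lpgat1 has another RefSeq start, whose region holds 2 GC boxes. The Agpat3 window reaches base 78351950 and so lies inside the gene, which ends at 78352497 on the minus strand. Both Lpgat1 windows, from 191717774 and from 191718145, also lie inside their gene, which begins at 191717554 on the plus strand. The letters at the outer ends of these genes are not shown. Among 32851 promoters of this length, 35.7% hold a GC box and 37.4% a CCAAT box. The sterol regulatory element occurs in 1.24% of promoters, the nuclear receptor core in 16.3% and the TATA box in 13.6%, and the windows printed here hold none of these. The GC content was 75.3% for Chpt1, 77% for Lpgat1, 59% for Agpat3 and 74% for Acsl3. The matches describe letters only.

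Release of fatty acids from phospholipids was represented by Pla2g4a, the cytosolic phospholipase that frees arachidonic acid (Entrez 18783, chromosome 1, 149829618 to 149961290, minus strand). Pla2g4a stood at 1333, 923 and 1095 CPM in WT and at 1046, 1132 and 1182.5 CPM in KO. The KO replicates fell inside the WT range. The log2 fold change was 0.0037 ± 0.14 (SE), with KO between 0.801 and 1.25 times WT. Ptgs2, the inducible cyclooxygenase that acts on arachidonic acid and lies near Pla2g4a on chromosome 1, had no count in WT replicate 1 and 7.45 and 12.4 CPM in WT replicates 2 and 3, against 7.98, 18.7 and 4.55 CPM in KO replicates 1 to 3. Lypla1, a lysophospholipase and protein thioesterase, averaged 221 ± 13.9 CPM in WT against 218 ± 37.3 CPM in KO (SD, n = 3). Lyplal1, a related hydrolase, stood at 37.8, 25.8 and 36.0 CPM in WT and at 53.5, 40.2 and 40.6 CPM in KO. The genotypes did not overlap, as in 8.49% of all tested genes. The log2 fold change of Lyplal1, 0.43 ± 0.29 (SE), did not pass (edgeR adjusted p = 0.994). Pld5, which resembles phospholipase D, averaged 2.37 ± 2.59 CPM in WT against 1.399 ± 1.39 CPM in KO.

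The lists of lipid genes around the 10 name 297 genes of the whole genome, of which 26 are in the table and 21 were tested. Of these 21, 9 had a log2 fold change above 0 and 12 below, with a median of -0.02, and 0 passed the test in either direction. Outside the 10 members 11 were tested, 5 above 0 and 6 below. The flippases and scramblases, which move phospholipids between the leaflets of a membrane, had 2 tested genes. Ano4, of the TMEM16 family, averaged 1499 ± 133 CPM in WT against 1606 ± 102 CPM in KO (SD, n = 3). Xkr4, an XK-related scramblase, stood at 10.1, 5.71 and 5.58 CPM in WT and at 11.96, 12.3 and 16.3 CPM in KO. Its values rest on 23 to 79 counts per replicate. The genotypes did not overlap, as in 8.49% of all tested genes. The log2 fold change was 0.92 ± 0.52 (SE, edgeR adjusted p = 0.994). Acyl-CoA thioesterases and the genes of phosphatidylinositol and cardiolipin synthesis are not analysed here, and the values above cover a small part of lipid metabolism.

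**Figure D5:**
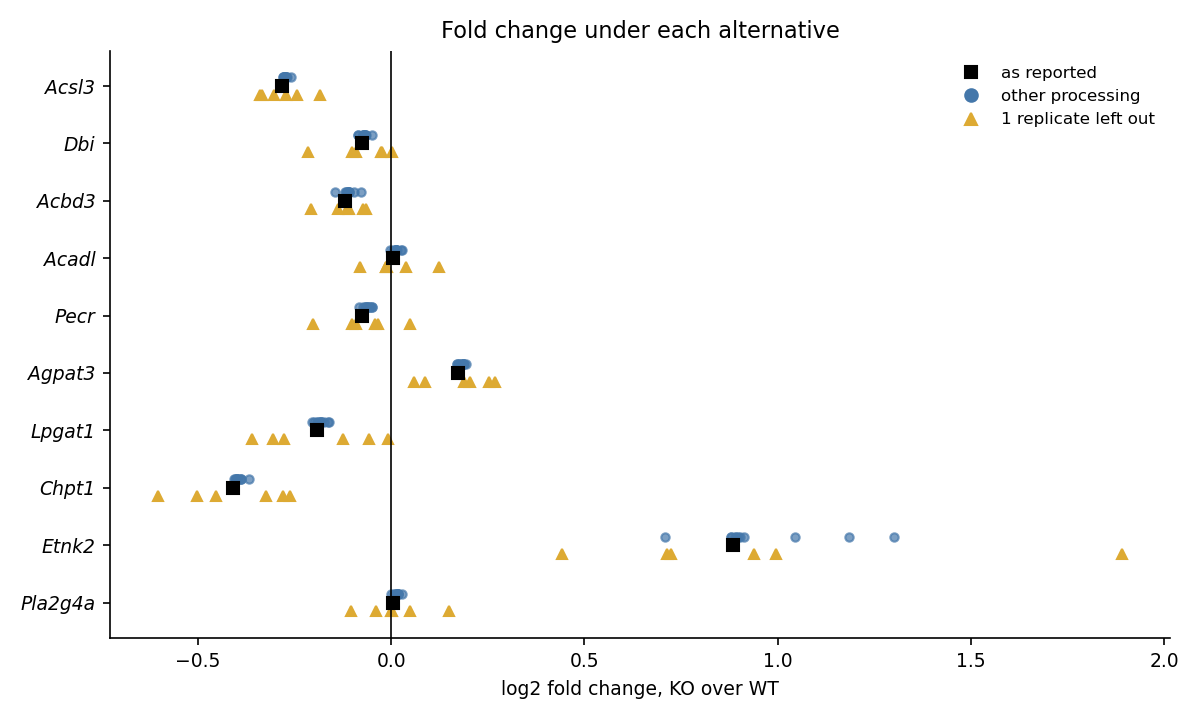
Log2 fold change, KO over WT, of each of the 10 genes as reported (black square), under 11 other ways of processing (blue circles) and with 1 replicate left out (6 yellow triangles). Leaving out a replicate moved the values more than other processing did for these genes; Acsl3, Acbd3, Lpgat1 and Chpt1 stay below 0 and Agpat3 and Etnk2 above 0 in all of these fits.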

How the data were processed

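The authors deposited raw counts of reads per gene for each library. The submitters' processing notes name CASAVA 1.8.2, FastQC, fastp and HISAT2, then SAMtools 1.4.1 and featureCounts, and also DESeq2 1.38.1, with the mm10 build. The sources used here state neither the annotation nor whether reads were assigned by strand, nor how reads matching several genes were handled. An incomplete line (1) was left out. Of the other 2398 genes, 2226 matched a symbol in the RefSeq table of GRCm38.p6, the assembly also called mm10, and the 172 without one held 0.552% of the counts.

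The 2 libraries of each replicate were summed. The genotypes were compared in edgeR 4.0.16 (R 4.3.3) with TMM factors, filterByExpr and a robust quasi-likelihood fit, with Benjamini-Hochberg adjustment over all 1484 genes tested and a threshold of 0.05. The SE was taken as the size of the log2 fold change over the root of F, and intervals are 95%. The fit was tested on simulated data. In each of 5 simulations, 200 of the 1484 genes were changed, by 1.5-fold to 8-fold. There 26.4% of genes changed 1.5-fold and 58.8% of genes changed 2-fold were called, as were 0.343% of unchanged genes. Many changes of this size would thus be missed. These rates belong to that number of changed genes and may not apply to the measured data, where no gene was called. They cover all tested genes together, and rates at the counts of the members were not taken. Alternatives were other size factors and filters, DESeq2 1.42.0, limma-voom (limma 3.58.1), a replicate block, other uses of the libraries and leaving out each replicate. For 3 replicates against 3, the smallest two-sided p of an exact permutation test would be 0.1, so none was run for single genes. Similar transcripts were searched with BLAST+ 2.17.0, over at least 100 bases.

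Named genes are the 10 members, up to 4 other tested genes of each lipid list and up to 3 of each marker list with the highest CPM, and the 2 genes most like each of the 3 most abundant members. Genes that overlap a member, immediate early genes, Rgs5 and Acss3 were named after their values were seen. Members and lists were chosen with earlier results of these data known. Start regions of the other members are not reported here.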

Additional observations from a re-analysis of the deposited data

How the results depend on the processing

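No gene of the whole table, of the 10 members or of the lipid lists was called with other size factors or filters, with limma-voom, with 1 library of each replicate, with a replicate block, with the immediate early covariate (chosen after seeing the data), or without any 1 replicate (0 genes in each such fit, with 34 to 86 genes at an unadjusted p under 0.05). DESeq2 called 7 genes of the whole table (6 higher and 1 lower in KO) and 0 members, and the cause was not tested. Taking the 12 libraries as separate samples called 49 genes (31 higher, 18 lower), of which 1 was a member and 1 a lipid list gene, Acsl3 in both cases (adjusted p = 0.0344). That fit counts libraries of the same replicate as if they were separate replicates. Of 170 alternative values of the 10 members, 159 kept their direction and call and 10 changed sign. Without 1 replicate, values ranged from -0.082 to 0.12 in Acadl, from -0.22 to 0.0024 in Dbi, from -0.20 to 0.048 in Pecr and from -0.10 to 0.15 in Pla2g4a. The sign also changed in Acadl with the first library of each replicate (-0.0036) and in Pla2g4a with the immediate early covariate (-0.0007). For these changes the cause was not tested.

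The replicate numbers gave no sign of pairing the samples: same-numbered replicates had correlations of deviations of 0.0033, -0.33 and 0.15, and for WT replicate 2 the closest KO sample was replicate 1 (0.38). The replicate block left 0 genes called (49 at an unadjusted p under 0.05), with -0.28 for Acsl3, -0.39 for Chpt1 and 1.30 for Etnk2. Etnk2 had the fewest counts of the members, 7 to 77 per replicate, and the largest SE (0.73).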
